A study of Mus musculus with 6 samples.

Results

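The oligoadenylate synthetase (OAS) family was described in Hepa1-6 cells, a mouse liver cancer line, as 7 genes picked by symbol: Oas1a, Oas1b, Oas1g, Oas2, Oas3, Oasl1 and Oasl2. All 7 were found among the 55573 genes of the count table, and 6 of them were among the 14842 genes with enough counts to test. RNA was measured by bulk mRNA sequencing in 3 libraries from cells with a CRISPR/Cas9 knockout of Matr3 (KO) and 3 libraries from wild-type cells (WT). Both groups are the same line, with no other allele, agent or infection in the labels. Nothing in the labels tells 1 KO clone from a pool, or separate cultures from repeat libraries of 1 culture, so a p-value here sets the groups against a library spread that may be technical only.

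OAS proteins bind double-stranded RNA and, once bound, join ATP into short oligoadenylates with an unusual bond between the sugar units. These oligoadenylates are second messengers that lead to the cutting of viral and cellular RNA and so to a stop in translation. Their genes are classic targets of interferon, whose signal reaches them through factors that include Stat2 and Irf9, and liver cells are among the cells that use the pathway. Matr3 encodes matrin 3, a nuclear protein that binds RNA and DNA.

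Library totals lay between 23126778 and 30794032 counts in KO and between 20736570 and 27578804 counts in WT. KO library 2 and WT library 1 stood apart from the other libraries of their groups: chi-square per gene was 55.1 and 66.0 for KO library 2 against its partners and 3.43 between those partners, and 23.1 and 27.5 for WT library 1 against 6.21. Between KO and WT libraries it ran from 43.0 to 74.2, so KO library 2 lay as far from its partners as KO libraries did from WT libraries. The correlation of log2 CPM was at least 0.982 within groups and at most 0.974 between them. Matr3 mRNA was at 75.9, 86.0 and 75.2 CPM (counts scaled to an even library size, by TMM) in KO, against 129, 125 and 134 CPM in WT, a log2 fold change of -0.71 (SE 0.0899, edgeR adjusted p = 0.00270). Its message was lower but not lost, and the labels do not place the edit within the gene. Of 9 liver-cell and hepatoma markers, 5 (Alb, Apoa1, Ttr, Trf and Hnf4a) were under 1 CPM in every library of both groups, so the defining genes of mature hepatocytes were near 0 here. The name Hepa1-6 is that of the labels. These 5 markers do not bear out a liver origin, and the identity of the cells was not tested.

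The 7 genes sit at 2 places on chromosome 5, in the coordinates of the deposited table. Oas2, Oas3, Oas1b, Oas1g and Oas1a lie within a cluster of 191 kb (chr5:120868398-121059715) that also holds Oas1c to Oas1f and Oas1h, with Oas1d at its far end. Oasl2 and Oasl1 are neighbours on the + strand in 41.0 kb (chr5:115034997-115075974), 5.79 Mb away. The table's coordinates are not those of GRCm38, the build the submitters' processing notes name with mm10: Oas1a starts at 121034319 in the table and at 120896256 in the RefSeq annotation of GRCm38. No build could be given to them. The table lists Oas1b as a polymorphic pseudogene and the other 6 as protein-coding.

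Promoters are shown for the pair of Oas1 genes with the largest fold changes and for Oas3, the family member with the highest level, because interferon-responsive letters stand near their start sites. Each line gives the 250 bases before the start site on the strand of the gene, from RefSeq GRCm38.p6, with matches to the interferon-stimulated response element core in capitals. The regions are chr5:120907526-120907775 for Oas1a, chr5:120887614-120887863 for Oas1g and chr5:120777660-120777909 for Oas3, all on the minus strand.
Oas1a: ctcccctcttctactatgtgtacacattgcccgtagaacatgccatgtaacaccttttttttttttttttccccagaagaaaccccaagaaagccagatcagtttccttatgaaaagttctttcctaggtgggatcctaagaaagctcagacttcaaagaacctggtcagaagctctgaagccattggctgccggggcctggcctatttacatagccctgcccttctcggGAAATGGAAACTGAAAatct
Oas1g: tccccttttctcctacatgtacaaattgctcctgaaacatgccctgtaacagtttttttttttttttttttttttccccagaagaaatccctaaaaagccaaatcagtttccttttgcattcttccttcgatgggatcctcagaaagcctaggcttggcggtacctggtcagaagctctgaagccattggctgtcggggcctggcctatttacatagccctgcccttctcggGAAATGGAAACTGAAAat
Oas3: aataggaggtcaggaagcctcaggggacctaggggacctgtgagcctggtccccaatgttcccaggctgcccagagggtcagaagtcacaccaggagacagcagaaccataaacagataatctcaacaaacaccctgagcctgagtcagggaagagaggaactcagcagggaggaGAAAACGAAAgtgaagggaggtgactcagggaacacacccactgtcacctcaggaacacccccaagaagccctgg

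The letters searched were GAAA, then any 2 bases, then GAAA, on both strands, in the 250 bases before and 50 bases after each start site. A match was present in 1131 of 32851 such promoters, a share of 3.44%. Oas1a held 2 overlapping matches, GAAATGGAAA and GAAACTGAAA, whose first bases lay at -20 and -14 from the start site. The same letters stood in the Oas1g promoter at -18 and -12. The promoters of this pair were alike: 212 of 256 alignment columns of the stretches printed were identical (82.8%), and the last 54 bases up to the end of the second match were the same letter for letter. Oas3 held 1 match, GAAAACGAAA, at -75. The Oasl1 and Oasl2 promoters, which were also searched, had no match, so 3 of the 5 family members with a promoter in the reference held one. The interferon-gamma activated site, TTC, any 3 bases, then GAA, which reads the same on both strands, was in 2726 of 32851 promoters (8.30%) and, of these 5 members, at -98 in Oas1a alone. A match is a description of letters, and binding was not measured.

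Most of the tested OAS members were higher in KO cells. The member list leaves out 5 other Oas1 genes, described below, and was set with earlier results of these data known. Of the 6 members tested, 5 (Oas1a, Oas1g, Oas3, Oasl1 and Oasl2) rose at an adjusted p under 0.05 (edgeR quasi-likelihood test, Benjamini-Hochberg over all tested genes) and none fell. Across all 14842 tested genes 15.2% were called, 7.69% higher and 7.48% lower. The median log2 fold change was 0.94 over the 6 tested members and -0.02 over all tested genes. Oas1g passed the filter on low counts through its KO libraries alone, so its place in this count and median follows from its KO level. With a mean of at least 1 CPM as the filter, Oas1g was left out. Then 4 of 5 tested members were called higher, beside 9.7% of all tested genes. At an unadjusted p under 0.05 (edgeR), 5 members were higher and 0 lower, where 2306 of all 14842 tested genes were higher and 2301 lower. DESeq2 and limma voom each called 5 members higher and 0 lower, and limma on log2(FPKM + 1) called 4 and 0. Over all tested genes, DESeq2 called 9.84% higher and 9.78% lower, and limma voom 7.49% and 7.53%. For limma on log2(FPKM + 1) these shares were 6.76% and 5.71%. The same 5 members had every KO library above every WT library, which held for 18.3% of all tested genes (the reverse held for 18.4%). In bulk RNA, more cells that express a gene and more RNA per cell cannot be told apart.

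**Figure D1:**
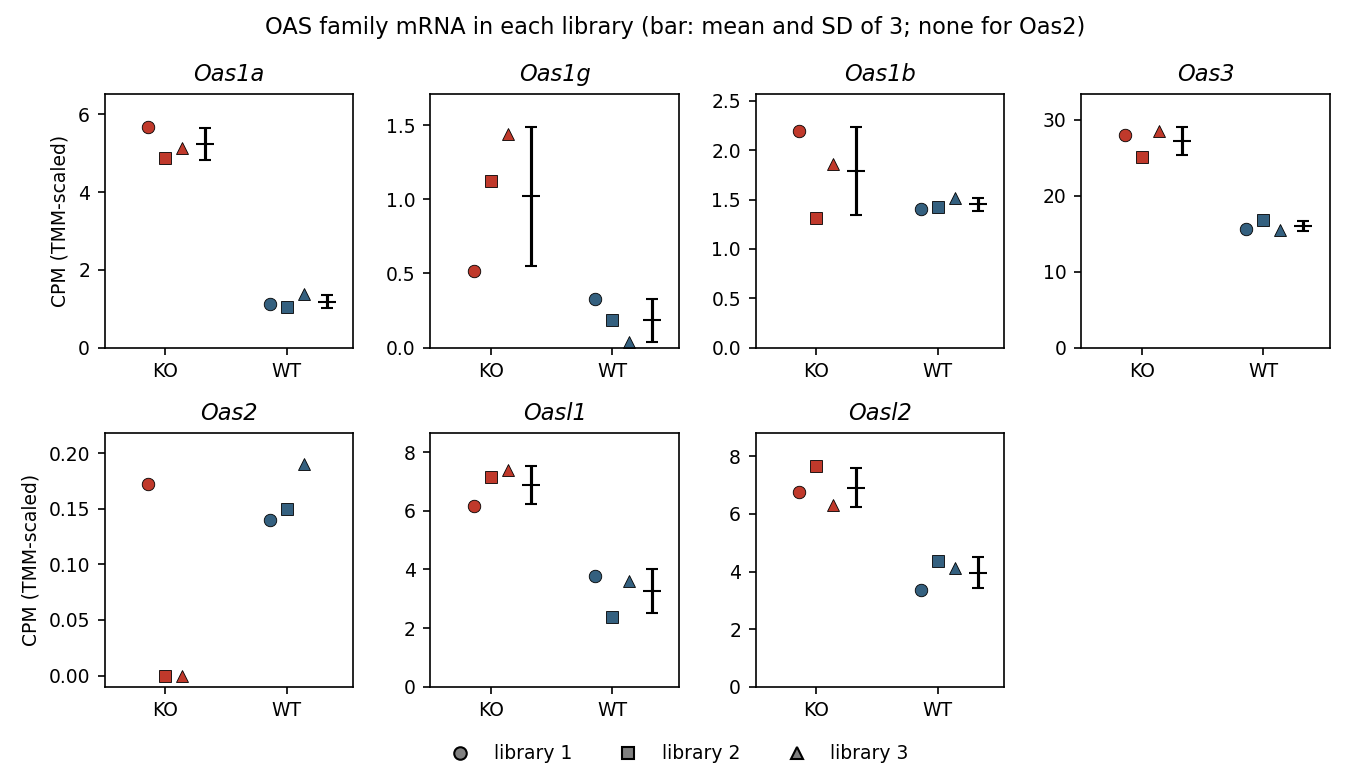
CPM (TMM-scaled counts) of the 7 OAS members in each of 3 KO and 3 WT libraries; symbols mark the library number, and black bars give mean and SD except for Oas2, which has at most 5 counts in a library. KO points lie above all WT points for Oas1a, Oas1g, Oas3, Oasl1 and Oasl2, and the groups overlap for Oas1b and Oas2.

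Oas1a and Oas1g encode active synthetases of the small, single-domain kind in mouse. Oas1a had 132, 153 and 146 counts in KO libraries 1 to 3, against 24, 28 and 36 counts in WT libraries 1 to 3. Scaled, that was 5.68, 4.88 and 5.13 CPM in KO and 1.12, 1.05 and 1.37 CPM in WT. The KO libraries were close to each other and all far above the highest WT library. Means were 5.23 ± 0.409 CPM in KO and 1.18 ± 0.169 CPM in WT (SD, n = 3 each). The log2 fold change of Oas1a was 2.14 (SE 0.213, edgeR adjusted p = 0.00102), or 4.42-fold. In order of p, Oas1a was number 89 of all tested genes.

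Oas1g was a low gene with 12, 35 and 41 counts in KO, against 7, 5 and 1 counts in WT. These were 0.516, 1.12 and 1.44 CPM in KO and 0.326, 0.187 and 0.0380 CPM in WT. The groups did not overlap, but KO library 1 lay nearer to the highest WT library than to the other KO libraries. The log2 fold change was 2.51 (SE 0.657, edgeR adjusted p = 0.0377), the largest of the 6 tested members and the one with the widest error. Every WT library was below 10 counts, the minimum of the filter, so Oas1g could be tested only because of its KO level. The call was lost when KO library 1, KO library 3, WT library 2 or WT library 3 was left out, and on log2(FPKM + 1).

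Reads of Oas1a and Oas1g cannot always be told apart. Of the 50-base windows of the Oas1a transcript in GENCODE M21, 57.6% occur letter for letter in another gene, all of these in Oas1g, and of the 100-base windows 40.9% do. For Oas1g the shares were 45.7% and 31.3%. No source used here gives read length or how such reads were counted, so the split of counts between this pair is uncertain. Summing all Oas1 genes of the table avoids that split: the sum was 254, 333 and 334 counts in KO, against 81, 105 and 131 counts in WT, or 10.9, 10.6 and 11.7 CPM in KO and 3.78, 3.93 and 4.98 CPM in WT. All KO sums were above all WT sums, with a log2 fold change of 1.39 (SE 0.157, edgeR adjusted p = 0.00177). Oas1a took 52.0%, 45.9% and 43.7% of the Oas1 counts in the KO libraries and 29.6%, 26.7% and 27.5% in the WT libraries.

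Oas1b, known in mice as the flavivirus resistance gene and cut short by a stop codon in many laboratory strains, was the exception among the tested members. It had 51, 41 and 53 counts in KO, against 30, 38 and 40 counts in WT. In CPM it was 2.19, 1.31 and 1.86 in KO and 1.40, 1.42 and 1.52 in WT. KO libraries 1 and 3 were above all WT libraries and KO library 2 was below them, so the groups overlapped. The log2 fold change was 0.30 (SE 0.288, edgeR adjusted p = 0.520). Without KO library 2 and WT library 1 it was 0.46 (edgeR adjusted p = 0.202). Its transcript shares 2.98% of its 50-base windows with other genes and none of its 100-base windows.

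Oas3, which encodes the largest protein of the family, had the most counts. It had 650, 786 and 812 counts in KO, against 335, 450 and 409 counts in WT. In CPM these were 28.0, 25.1 and 28.5 in KO and 15.6, 16.8 and 15.5 in WT. The 3 WT libraries were close together, and the lowest KO library was well above them. Means were 27.2 ± 1.86 CPM in KO and 16.0 ± 0.720 CPM in WT (SD, n = 3 each). The log2 fold change of Oas3 was 0.76 (SE 0.104, edgeR adjusted p = 0.00329), or 1.70-fold. Oas3 carried 56.6%, 53.1% and 56.3% of the counts of the 7 members in KO and 60.7%, 63.7% and 58.8% in WT.

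Oas2, the mid-sized synthetase, was close to undetected in these cells. It had 4, 0 and 0 counts in KO, against 3, 4 and 5 counts in WT, which is 4 counts in KO in all and 12 in WT. Only KO library 1 had any reads of it among the KO libraries, and that library lay within the WT range. It did not pass the filter on low counts and was not tested. Oas3, its neighbour in the cluster with the next start site, had at least 335 counts in each of the same libraries.

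Oasl1 and Oasl2 encode OAS-like proteins with ubiquitin-like domains at their ends. Oasl1 has no synthetase activity and is known in mouse for restraining translation of Irf7, while Oasl2 is an active synthetase. Oasl1 had 143, 224 and 210 counts in KO, against 81, 64 and 95 counts in WT, or 6.15, 7.14 and 7.38 CPM in KO and 3.78, 2.39 and 3.61 CPM in WT. All KO libraries were above all WT libraries, with WT library 2 the lowest of the 6. Its log2 fold change was 1.08 (SE 0.212, edgeR adjusted p = 0.0134), or 2.12-fold. Without KO library 3 the adjusted p from edgeR was 0.0512.

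Oasl2 had 157, 241 and 180 counts in KO, against 72, 117 and 109 counts in WT. In CPM this was 6.75, 7.68 and 6.32 in KO and 3.36, 4.37 and 4.14 in WT. No WT library reached the lowest KO library. The log2 fold change was 0.80 (SE 0.175, edgeR adjusted p = 0.0196), or 1.74-fold. The edgeR adjusted p was 0.0651 without KO library 1, 0.0535 without KO library 3, 0.0530 without WT library 2 and 0.0708 without WT library 3.

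The number of members called higher fell with single libraries left out: 3 without KO library 1, 2 without KO library 3, and 3 without either WT library 2 or WT library 3. Calls over all genes fell in the same fits, to 3.09%, 2.97%, 3.03% and 2.57% of tested genes called higher, in the same order of libraries. Oas1a and Oas3 were called in each of these fits. Without the libraries that stood apart, KO library 2 and WT library 1, the same 5 members were called, with log2 fold changes of 2.16 for Oas1a, 3.10 for Oas1g, 0.80 for Oas3, 1.18 for Oasl1 and 0.62 for Oasl2. In that fit 51.0% of all 14825 tested genes were called, 25.3% higher and 25.7% lower, so a call there says less than in the fit of all 6 libraries. KO libraries also differed in how gene level moved with GC content, with correlations of 0.26, -0.27 and 0.26 in KO and -0.03, -0.028 and -0.16 in WT. With that trend removed, the log2 fold changes were 2.09 for Oas1a, 2.46 for Oas1g, 0.70 for Oas3, 1.03 for Oasl1 and 0.77 for Oasl2, and 5 members were called, with 10.2% of all tested genes called higher.

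The authors' deposited table of the same comparison called the same 5 members higher. Its log2 fold changes were 1.60 for Oas1a, 0.76 for Oas1g, 0.72 for Oas3, 0.88 for Oasl1 and 0.67 for Oasl2, and 0.19 for Oas1b. For 7 of 7 members, the log2 fold change in the authors' deposited table lay nearer to 0 than the log2 ratio of the group means beside it. The gap was widest among the called members for Oas1g, where the authors' deposited table has a log2 ratio of means of 2.50.

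Between genes, levels were compared on the deposited FPKM, which divides by gene length. In KO cells Oas3 was highest at 3.85 ± 0.249 FPKM, followed by Oas1a at 2.78 ± 0.203 and Oasl1 at 2.65 ± 0.260 FPKM (SD, n = 3 each). Oas1a and Oasl1 overlapped between libraries and had no clear order. Next came Oasl2 at 1.09 ± 0.113 and Oas1b at 0.898 ± 0.221 FPKM, which also overlapped, then Oas1g at 0.439 ± 0.202 FPKM, with Oas2 last.

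In WT cells Oas3 was again highest, at 2.25 ± 0.114 FPKM, and Oasl1 followed at 1.24 ± 0.281 FPKM (SD, n = 3 each). Oas1b at 0.722 ± 0.0382, Oas1a at 0.622 ± 0.0919 and Oasl2 at 0.618 ± 0.0894 FPKM overlapped with their neighbours in the order. Oas1g, at 0.0777 ± 0.0603 FPKM, overlapped with Oas2. Within single libraries, Oas1a was above Oas1b in all 3 KO libraries and below it in all 3 WT libraries, although the WT ranges of the pair overlapped.

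**Figure D2:**
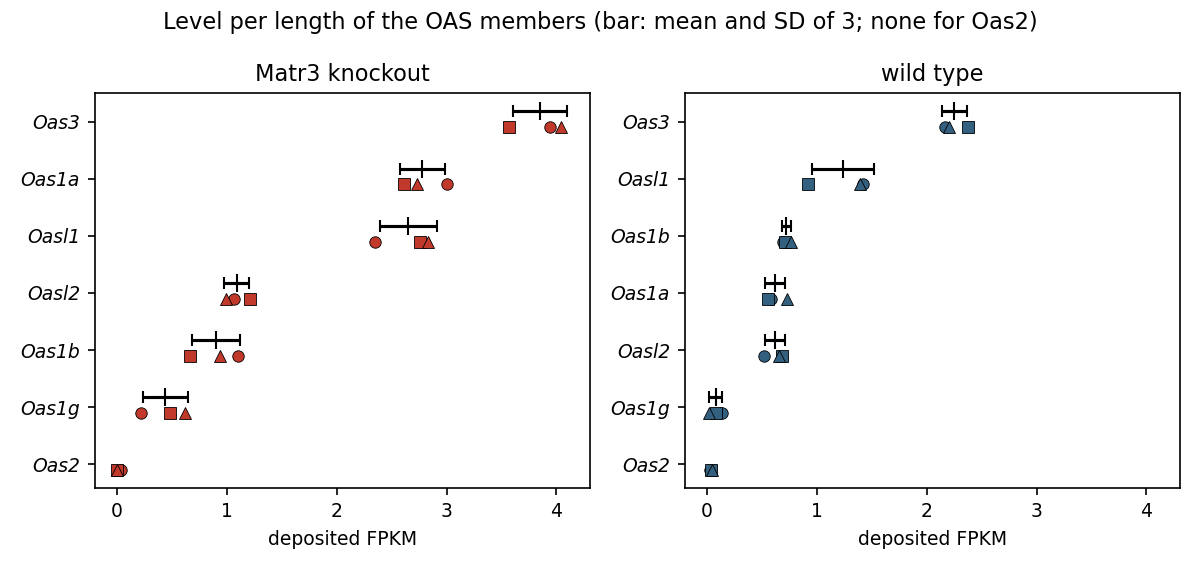
Deposited FPKM of each member in each library, with KO in the left panel and WT in the right; members are in order of their group mean, and black bars give mean and SD of 3 libraries, except for Oas2. Oas3 leads both panels, and Oas1a lies at 2.78 FPKM in KO and at 0.622 FPKM in WT on average.

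Whether the members moved by different amounts was asked from ratios of counts within each library, which do not depend on library scaling. The 5 members with at least 10 counts in every library gave 10 pairs. The log2 ratio of Oas1a to Oas3 was -2.30, -2.36 and -2.48 in KO, against -3.80, -4.01 and -3.51 in WT, a difference of 1.39. The KO values were close together and all above the WT values. The log2 ratio of Oas1a was also higher in KO by 1.88 to Oas1b, by 1.35 to Oasl2 and by 1.05 to Oasl1, each time with no overlap between groups. Reads shared with Oas1g bear on each ratio with Oas1a, and their part in it was not tested.

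The log2 ratio of Oas1b to Oas3 differed by -0.49 (KO minus WT) and that of Oas1b to Oasl1 by -0.83, again with no overlap. These gaps were thin: the nearest KO and WT values were -3.67 and -3.57 to Oas3, and -1.49 and -1.43 to Oasl1. The groups overlapped for Oas1b against Oasl2 (difference -0.54), Oas3 against Oasl1 (-0.34), Oas3 against Oasl2 (-0.05) and Oasl1 against Oasl2 (0.29). In all, 6 of 10 pairs had groups that did not overlap, and each of the 6 involved Oas1a or Oas1b. Most of the 10 pairs hold Oas1a or Oas1b by construction, and pairs that share a member are not independent. Among single tested genes, every KO library was above every WT library for 18.3%, and below for 18.4%. The share among ratios of other genes was not computed. With 3 against 3 libraries, the exact two-sided permutation test cannot go below p = 0.1, which those 6 pairs reached (0.167 after Benjamini-Hochberg over the 10 pairs), so none could pass the threshold.

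**Figure D3:**
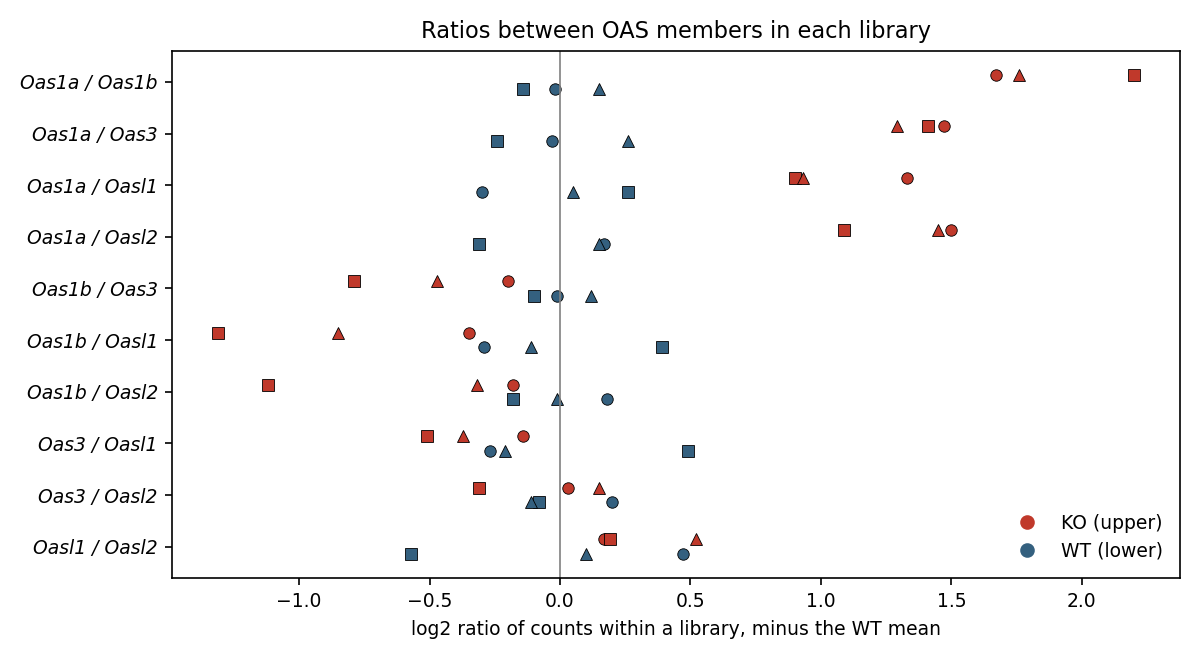
Log2 ratio of counts of 2 members within each library, shifted so that the WT mean is 0, for 10 pairs; KO libraries are drawn above WT libraries in each row. Ratios of Oas1a to each of the other 4 members lie higher in every KO library than in any WT library, by 1.05 to 1.88 on average, and the ratios among Oas3, Oasl1 and Oasl2 overlap.

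Of the other 5 Oas1 genes of the cluster, 4 were too low to test. Oas1c was tested, with 2.54, 3.12 and 3.27 CPM in KO, against 0.932, 1.23 and 1.98 CPM in WT. The Oas1c groups did not overlap, and its log2 fold change of 1.10 (SE 0.315, edgeR adjusted p = 0.0505) just missed the threshold. It was called in 11 of 17 other settings, among them DESeq2 and the fit without WT library 3, and in the authors' deposited table its log2 fold change was 0.72 with an adjusted p of 0.0299. Its promoter holds the same overlapping letters as that of Oas1a, read on the opposite strand, with first bases at -114 and -108. The promoters of Oas1f and Oas1h, which were also searched, had no match, and those of Oas1d and Oas1e were not in the reference. Oas1e had 7 counts in KO and 1 in WT, and Oas1h had 0 in KO and 2 in WT. Oas1d and Oas1f had 0 counts of 157722497 over the 6 libraries, which allows up to 0.0190 CPM.

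Other genes tied to the oligoadenylate pathway went in both directions. Of 4 genes, all tested, 1 rose, 1 fell and 2 did not pass, with a median log2 fold change of 0.02. In this fit 7.69% of all tested genes were called higher and 7.48% lower.

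Abce1, whose protein recycles ribosomes and is known as an inhibitor of the pathway, was at 204, 245 and 195 CPM in KO, against 302, 329 and 350 CPM in WT. It fell by 0.61 on the log2 scale (edgeR adjusted p = 0.0113), with no overlap between groups; the call was lost without KO library 1, KO library 3, WT library 2 or WT library 3. Enpp1, a membrane phosphodiesterase that also splits the second messenger cyclic GMP-AMP, was at 5.76, 7.56 and 4.22 CPM in KO, against 2.56, 2.84 and 3.34 CPM in WT. It rose by 1.00 on the log2 scale (edgeR adjusted p = 0.0309), a call that was lost without KO library 1 or any 1 WT library, and in 8 of 18 other settings in all. Pde12, a mitochondrial phosphodiesterase that degrades oligoadenylates in human cells, had a log2 fold change of -0.41 (edgeR adjusted p = 0.0566). For Akap7, whose mouse protein also degrades them, it was 0.44 (edgeR adjusted p = 0.101).

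Other proteins that bind double-stranded RNA were split. Among 11 tested, 2 rose, 2 fell and 7 did not pass, and the median log2 fold change was -0.07. Of all tested genes 7.69% were called higher and 7.48% lower. Without KO library 2 and WT library 1, 5 of the 11 were called lower, with 25.7% of all tested genes called lower in that fit. Ifih1, which encodes the sensor MDA5, was at 12.0, 14.1 and 11.8 CPM in KO, against 7.04, 7.07 and 6.73 CPM in WT (log2 fold change 0.86, edgeR adjusted p = 0.00487). Dhx58, which encodes the sensor LGP2, was at 9.42, 10.1 and 9.73 CPM in KO, against 6.01, 4.45 and 4.90 CPM in WT (0.93, edgeR adjusted p = 0.00745). Neither gene's groups overlapped.

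Among the genes that fell, Dicer1, the nuclease of small RNA maturation, had a log2 fold change of -0.51 (edgeR adjusted p = 0.0148), and the helicase gene Dhx9 one of -0.43 (edgeR adjusted p = 0.0464). Both calls were lost when KO library 1, KO library 3, WT library 2 or WT library 3 was left out, and that of Dhx9 was lost in 8 of 18 other settings in all, among them both limma fits on FPKM and the fit with no filter on low counts.

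Interferon genes themselves gave next to no reads. Of 10 ligand genes in the table none was tested, and 8, among them Ifnb1 and the 4 Ifna genes listed, had 0 counts in all 6 libraries. Ifne had 0 counts in KO and 7 in WT, and Ifnk had 0 counts in KO and 10 in WT. A count of 0 over the KO libraries allows up to 0.0364 CPM.

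Among 18 receptors, kinases, factors and brakes of interferon signalling, all tested, 4 rose, 1 fell and 13 did not pass. Over all tested genes 7.69% were called higher and 7.48% lower. The median log2 fold change of the 18 was 0.13. Without KO library 2 and WT library 1, 9 of the 18 were called higher and 3 lower. In that fit 25.3% of all tested genes were called higher and 25.7% lower. Ifnlr1, the receptor chain specific to lambda interferons, was at 9.77, 7.08 and 10.0 CPM in KO, against 3.22, 2.36 and 2.20 CPM in WT (log2 fold change 1.79, edgeR adjusted p = 0.00251). The transcription factor genes Irf7 (1.31, edgeR adjusted p = 0.00825) and Irf1 (0.62, edgeR adjusted p = 0.00733) rose as well. Irf7 was at 4.43, 4.18 and 5.76 CPM in KO and 2.05, 1.61 and 2.13 CPM in WT. Usp18, which encodes a protease that damps the type I receptor, was lower in KO (-1.09, edgeR adjusted p = 0.0174), and that call was lost without KO library 1, KO library 3, WT library 2 or WT library 3.

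Stat2 and Irf9, which encode factors that interferon acts through at such promoters, did not pass. Named after the values were seen, Stat2 had a log2 fold change of 0.32 (edgeR adjusted p = 0.232) and Irf9 one of -0.02 (edgeR adjusted p = 0.957).

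Of 20 other interferon-stimulated genes, 16 were tested, 7 rose, none fell and 9 did not pass, with a median log2 fold change of 0.63. In the same fit 7.69% of all tested genes were called higher and 7.48% lower. At an unadjusted p under 0.05, edgeR gave 9 of the list higher and 0 lower, beside 2306 and 2301 of all 14842 tested genes. DESeq2 called 8 of the list higher and 0 lower, beside 9.84% and 9.78% of all tested genes. Isg15, a ubiquitin-like modifier, was at 16.8, 14.6 and 18.9 CPM in KO, against 6.71, 6.28 and 5.82 CPM in WT (log2 fold change 1.42, edgeR adjusted p = 0.00103). Xaf1, which encodes an antagonist of an apoptosis inhibitor, had a log2 fold change of 1.47 (edgeR adjusted p = 0.00557). Rsad2, the gene of the antiviral enzyme viperin, had one of 1.19 (edgeR adjusted p = 0.0152), and Ifi35 one of 0.73 (edgeR adjusted p = 0.0130). The count of 7 higher was 4 without KO library 3, 2 without WT library 2 and 3 without WT library 3, fits in which calls over all genes fell as well. Isg15 and Xaf1 kept their calls in each of 18 other settings. Rsad2 lost its call without KO library 3 or WT library 2, and Ifi35 without WT library 2 or WT library 3. The 7 higher and none lower hold for this list as drawn, since interferon also raises genes placed in the other lists. Among those, Irf7, Irf1, Ifih1 and Dhx58 rose, Usp18 fell, and Stat2, Irf9, Eif2ak2 and Adar did not pass. They were grouped so after their values were seen.

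Not every such gene moved with the OAS members. Ifit1, Ifit3, Mx1 and Ddx60 were too low to test; these and the next genes were named after their values were seen. Mx1 had 11 counts in KO and 36 in WT, with every KO library below every WT library in CPM. Ifit2, a tested gene of the same kind, had a log2 fold change of -0.17 (edgeR adjusted p = 0.593), and Bst2 one of 0.07 (edgeR adjusted p = 0.590).

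**Figure D4:**
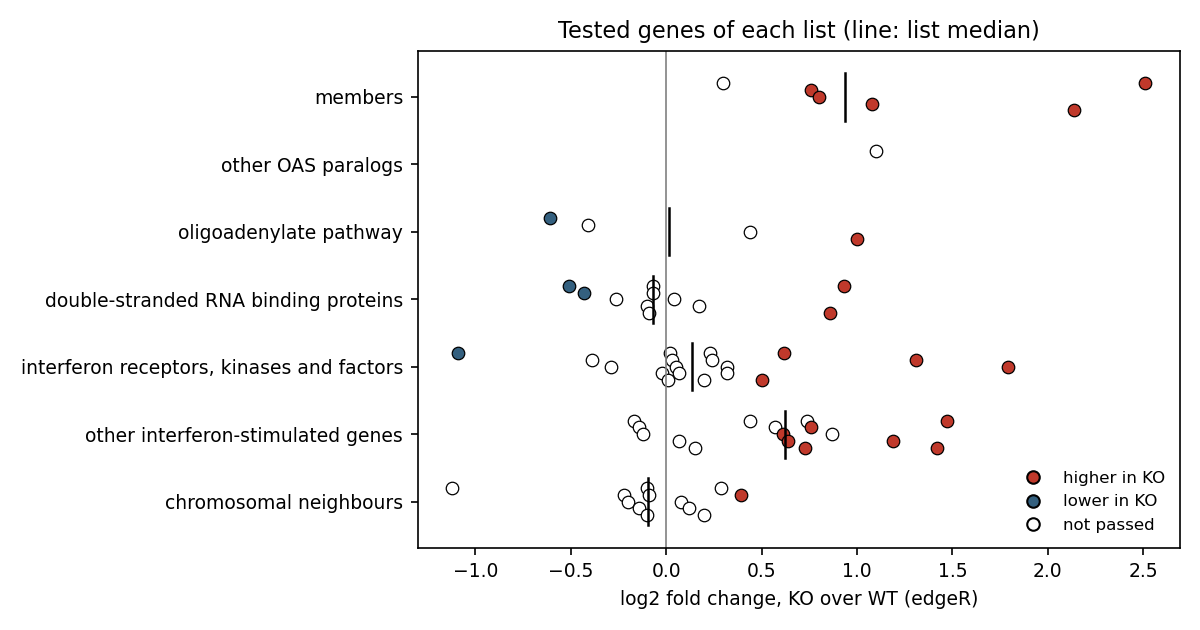
Log2 fold change (KO over WT, edgeR) of every tested gene in the OAS family and in the lists around it, one point a gene; filled points passed an adjusted p under 0.05, and vertical lines are list medians. The median is 0.94 for the 6 tested members, 0.63 for other interferon-stimulated genes and -0.09 for the chromosomal neighbours.

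Of the genes beside the family, 1 was called. The 3 nearest tested protein-coding genes on each side of both places, 12 in all, had a median log2 fold change of -0.09, and 1 rose and none fell (edgeR), where 15.2% of all tested genes were called. At an unadjusted p under 0.05, edgeR gave 1 higher and 1 lower, and DESeq2 called 1 and 0. The gene that rose, 1500011B03Rik, lies 73.5 kb from the Oasl pair and had a log2 fold change of 0.39 (edgeR adjusted p = 0.0373). Closer by, 2210016L21Rik at 4.24 kb from Oasl1 had one of 0.29 (edgeR adjusted p = 0.277). Rasal1, 50.7 kb from Oas2, had one of -1.12 (edgeR adjusted p = 0.171). Ddx54, Rita1, Ptpn11, Rpl6 and Hectd4 around the Oas cluster, and Ankrd13a, Git2, Sppl3 and Acads around the Oasl pair, lay between -0.22 and 0.20. The call of 1500011B03Rik was lost with any 1 library other than KO library 2 left out; without KO library 2 alone, 3 were called higher and 2 lower. Without KO library 2 and WT library 1, 4 of the 12 were called higher and 4 lower, with 51.0% of all tested genes called. Features that overlap a member on the other strand had at most 2 counts over the 6 libraries.

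The 6 tested members' log2 CPM, each centred on its own mean and then averaged, was 0.51, 0.57 and 0.71 in KO libraries 1 to 3 and -0.48, -0.62 and -0.68 in WT libraries 1 to 3. Over these 6 libraries, the protein-coding genes whose log2 CPM followed that profile most closely, of 9911 with a mean of at least 5 CPM, were Cbln3 (Pearson r = 0.9981), Ndufaf3 (0.9968), Becn1 (0.9956), Hp1bp3 (0.9955) and Stbd1 (0.9952). They were picked for that likeness, over 6 libraries in 2 groups. Stbd1, a glycogen-binding protein gene, was at 35.7, 35.8 and 37.5 CPM in KO, against 14.4, 14.4 and 13.4 CPM in WT.

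Defining markers of immune cells were mostly at 0. Summed leukocyte markers were at 12.4 to 16.0 CPM in KO and 10.6 to 11.9 CPM in WT, nearly all from Cd68, with 5 of 7 markers at 0 in all libraries. Siglech, which defines plasmacytoid dendritic cells, was at 0, and the sum of that list of 3 was 123 to 130 CPM in KO and 128 to 137 CPM in WT. The sum of 3 endothelial markers was 0.843 to 1.40 CPM in KO and 2.80 to 3.48 CPM in WT. The sum of 4 fibroblast markers was 16.8 to 25.3 CPM in KO and 13.8 to 16.4 CPM in WT, mostly from Col1a1 (log2 fold change 0.81). Pdgfrb of the same list was lower in KO (-1.39, edgeR adjusted p = 0.0153), and the median of the 3 tested was -0.69. The 9 liver-cell and hepatoma markers summed to 1020 to 1080 CPM in KO and 581 to 684 CPM in WT, with Krt8 at 755 to 762 CPM in KO and 362 to 445 CPM in WT. Krt8 and Krt18 made up most of that sum and rose. Afp (-0.79, edgeR adjusted p = 0.0505) and Apoe (-1.02, edgeR adjusted p = 0.171) had negative log2 fold changes, and the median of the 4 tested was -0.20. The part of these differences in the OAS results was not tested.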

How the data were processed

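The authors deposited 1 table for the series. Its raw counts, whole numbers for each gene per the file headers and values, were used as deposited. Deposited FPKM served to compare levels between genes. The deposited signal (group means), log2 fold changes and p-values are the authors' own comparison. No source used here gives the aligner, counter, strandedness or annotation release. Rows without a symbol held 0.251% of the counts and were left out of lists but kept in the fit.

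The test was edgeR 4.0.16 in R 4.3.3 (filterByExpr, TMM, quasi-likelihood F test, KO over WT, Benjamini-Hochberg over 14842 genes, threshold 0.05); SE follows from F. CPM is TMM-scaled. Alternatives used limma 3.58.1, DESeq2 1.42.0, FPKM pseudocounts of 1 and 0.1, other filters and scalings, left-out libraries, a GC trend by loess, and summed Oas1 genes. The fit was tested on simulated data. The limit for a count of 0 is 3 counts of the total, for counting error only, as reads are not independent molecules.

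The members and lists were chosen with earlier results of these data known. Named were all members, Matr3, other OAS paralogs, the oligoadenylate pathway list, up to 4 genes with the smallest p in each other list, the neighbours and the 5 genes most alike. Ddx58 stands for Rigi. A few genes that the lists would hold are not reported here. Deviations of KO and WT libraries with the same number correlated at 0.174, -0.0316 and -0.203. Libraries with unlike numbers gave -0.221 to 0.285, a range that holds these values. With 3 libraries in each group, this cannot decide whether the numbers pair the libraries.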

Additional observations from a re-analysis of the deposited data

How the results depend on the processing

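Oas3 (log2 fold change 0.58 to 0.82) kept direction and call in all 19 alternatives, and Oas1a (1.22 to 2.27) in the 18 that fitted it singly. Oas1b was called in none of those 18. In the other alternative all Oas1 genes were summed into 1 row. The 1.39 there, which was called, belongs to that sum and to no single Oas1 gene. Oas1g lost its call on log2(FPKM + 1), at 0.41; it was not tested with a mean of at least 1 CPM. At an adjusted p under 0.01, Oas1g (2.51), Oasl1 (1.08) and Oasl2 (0.80) were not called, which left 2 members; over all genes 347 were higher and 374 lower. With the replicate number as a block, which the labels do not say pairs the libraries, Oas1g had 2.47 and lost its call; 1 other OAS paralog was called higher, 0 genes of the oligoadenylate pathway list higher, 1 double-stranded RNA binding protein lower and 0 neighbours higher. With DESeq2, 1 paralog was higher and 2 genes of the oligoadenylate pathway list were lower. Without KO library 2 and WT library 1 together, all genes gave 3750 higher and 3806 lower; 1 paralog was higher, 2 oligoadenylate pathway genes lower, 5 double-stranded RNA binding proteins lower, 9 interferon receptors, kinases and factors higher and 3 lower, 1 other interferon-stimulated gene lower, and 4 neighbours higher and 4 lower. The log2 ratio of Oas3 to Oasl2, -0.05, became 0.19 there.

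With each library left out in turn, ranges were 2.01 to 3.16 for Oas1g, 0.91 to 1.22 for Oasl1, 0.72 to 0.89 for Oasl2 and -0.15 to 0.09 for the ratio of Oas3 to Oasl2. Members called higher ranged over 2 to 5, all genes over 393 to 2286 higher and 377 to 2009 lower, paralogs over 0 to 1 higher, the oligoadenylate pathway list over 0 to 1 higher and 0 to 2 lower, double-stranded RNA binding proteins over 0 to 2 lower, receptors and factors over 0 to 2 lower, other interferon-stimulated genes over 2 to 7 higher, and neighbours over 0 to 3 higher and 0 to 2 lower. The cause of these shifts was not tested, apart from fewer libraries or genes where the setting itself removes them. Of the 7 members, Oas2 and Oas1g had the fewest counts, at 4 and 88 in KO and 12 and 13 in WT.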
